A study of Homo sapiens with 12 samples.

Results

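A low dose of Ota was compared with its vehicle after 24 h in HK-2, an immortalised human cell line from the epithelium of the renal proximal tubule. The comparison rests on 6 of the 12 arrays of the series: 3 arrays of cells given the low dose of Ota for 24 h and 3 arrays of cells given the control vehicle for 24 h. The other 6 arrays are the Ota and vehicle cells at 72 h, which enter here as part of the common estimate of spread and where a 24 h response is set against the 72 h response. The labels do not spell out Ota and give no concentration. OTA is the usual abbreviation of ochratoxin A, a kidney-toxic mould toxin, but the labels do not write that name. Per the labels, cells in all 4 groups shared a defined culture medium whose additives were insulin, transferrin, selenite, hydrocortisone and epidermal growth factor, and exposure began near confluency. Replicates are labelled biological. Whether they came from separate cultures or days is not said, so p-values here speak only of the spread among these samples, which may be technical. Every gene with a probe set of its own is in scope: 19775 genes, each read from its brightest probe set, of which 10699 were bright enough to be tested.

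The proximal tubule reabsorbs most filtered solutes and secretes organic anions and drugs, which exposes its cells to toxins carried by those transporters. In culture many of its transporters are no longer expressed. Ochratoxin A contains a phenylalanine part and is known to compete with phenylalanine at phenylalanyl-tRNA synthetase, and it has been linked to oxidative stress, slowed protein synthesis and altered cell division. In these cells 9 of the 27 named proximal tubule markers were above the filter, among them the cadherin genes CDH6 and CDH16, the transcription factor gene PAX8 and the bicarbonate cotransporter gene SLC4A4. The endocytosis receptor genes LRP2 and CUBN, the water channel gene AQP1 and the anion transporter genes SLC22A6 and SLC22A8 were at the floor of the scale, so the label of the cell line was borne out by part of its markers. All 10 epithelial keratin and adhesion markers were above the filter, against 0 of 10 endothelial and 0 of 7 leukocyte markers, 4 of 10 fibroblast, 4 of 6 podocyte and 2 of 11 distal nephron markers. Summed over each of these lists, the ranges of the log2 levels in Ota and control arrays overlapped for all 7, with proximal tubule markers at 138 to 142 in Ota and 140 to 142 in control arrays. Many markers in these sums are at the floor. Of the single markers 7 were called: CDH6, KRT18, KRT19, the podocyte marker NES and the distal marker SCNN1A lower, and the podocyte marker SYNPO and the fibroblast marker ACTA2 higher, and their part in the results was not tested. The 3' probe set for actin exceeded the 5' one by 1.06 to 1.30 on the log2 scale in Ota and by 0.89 to 1.24 in control arrays, a measure of RNA integrity whose part in the results was not tested. Across the genes tested, Pearson's r was 0.986 to 0.993 within a group and 0.957 to 0.975 between the groups at 24 h.

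Of the 10699 genes tested, 3317 (31.0%) passed an adjusted p of 0.05 in limma. More genes fell than rose: 1010 (9.44%) were higher and 2307 (21.6%) lower in Ota cells. A change of at least 2-fold was called for 202 genes higher (1.89%) and 558 lower (5.22%), and for 101 and 310 genes among the 8483 whose means were at least 6 on the log2 scale in both groups. All 3 Ota arrays lay above all 3 control arrays for 1650 genes (15.4%) and below them for 2919 (27.3%). The median level of the genes tested was 8.16 to 8.22 in Ota arrays and 8.26 to 8.37 in control arrays. The balance between higher and lower calls moved with the scaling. When arrays were aligned on the median of the genes tested, 1881 were higher and 1697 lower. The median log2 fold change of all genes was then 0.07 in place of -0.06. In 5 equal bins of genes by mean level, falls were most frequent in bin 2 from the dim end, with 27.1% lower, and least frequent in the brightest bin, with 13.9%. Rises made up 7.10% of the dimmest and 9.86% of the brightest of these bins. Long non-coding RNA genes were called higher in 13.6% and lower in 22.0% of 295 genes, and protein-coding genes in 9.29% and 21.6% of 10263.

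**Figure D1:**
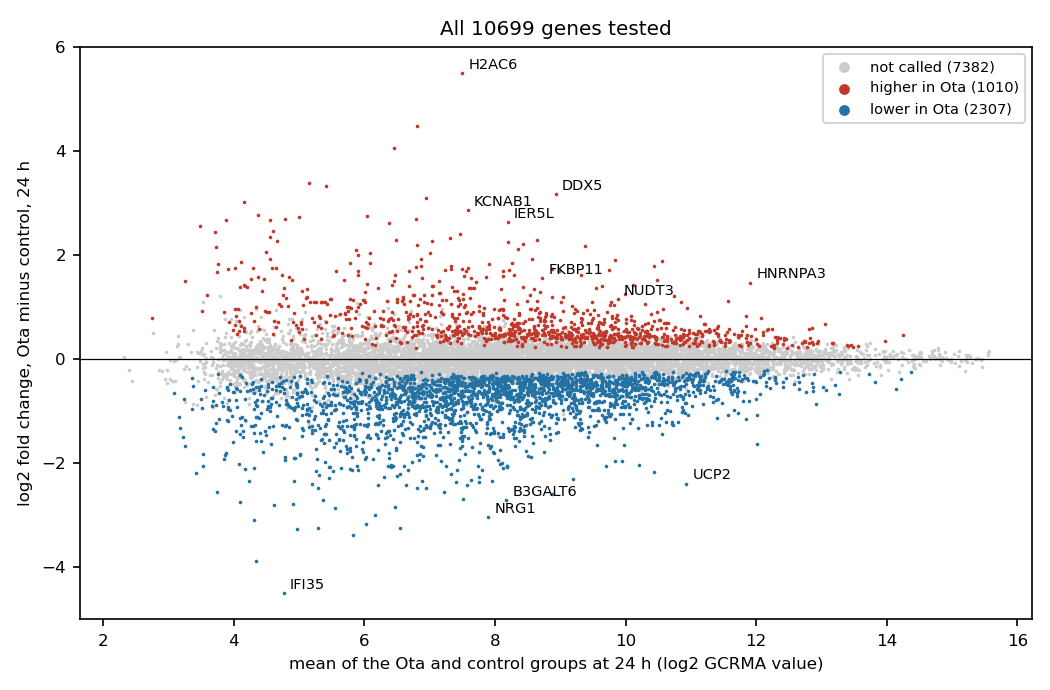
Mean log2 GCRMA value of the Ota and control groups at 24 h (x axis) against the log2 fold change of Ota minus control (y axis), 1 point per gene, with calls at an adjusted p of 0.05 in limma coloured. The 2307 lower genes reach further down at middle levels than at the bright end, and the 1010 higher genes are fewer at most levels.

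The largest rises among well-expressed genes whose arrays did not overlap were in DDX5, KCNAB1 and IER5L. DDX5, a DEAD-box RNA helicase that takes part in splicing and transcription, was at 10.72, 10.54 and 10.29 in Ota arrays, against 7.56, 7.32 and 7.15 in control arrays. The groups lay far apart, and the gene was 9.02-fold higher (log2 fold change 3.17 ± 0.14, SE, n = 3 per group; adjusted p = 2.28e-07, limma). KCNAB1, a beta subunit of voltage-gated potassium channels, was at 8.82, 9.18 and 9.04 in Ota and at 5.70, 5.92 and 6.81 in control arrays, and both of its probe sets rose, by 2.87 ± 0.27 and 2.69 ± 0.27. IER5L, a relative of the immediate-early gene IER5, was at 9.41, 9.65 and 9.47 in Ota and at 6.83, 6.84 and 6.96 in control arrays. The arrays of each group lay close together, while a second probe set for IER5L gave 0.21 ± 0.16 and did not pass. TIAM2, which activates the GTPase Rac, rose 5.04-fold, and PWAR6, a non-coding RNA gene of the Prader-Willi region, rose 4.65-fold with its other probe set at 1.92 ± 0.17. PCF11, a factor that cleaves and ends transcripts of RNA polymerase II, was at 10.37, 10.72 and 10.29 in Ota and at 8.37, 7.92 and 8.57 in control arrays. Its other, dim probe set was at -0.69 ± 0.33 and did not pass. TAF9B, a paralogue of a subunit of the general transcription factor TFIID, rose 3.77-fold on its brightest probe set. Its 2 others, at -0.29 ± 0.17 and -0.33 ± 0.13, did not pass. H2BC12L, a histone H2B gene, rose 3.81-fold. DDX5, TIAM2 and H2BC12L were each read from 1 tested probe set, so no other probe set stands beside their rises. ATP6V0A2, NEDD4L, ELP2 and PCNX1 completed the 12 largest rises at 4.32-fold to 5.34-fold, but each had another probe set called lower, described further on.

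The largest falls, chosen in the same way, were in NRG1, B3GALT6 and TMT1B. NRG1, a ligand of the ERBB receptors, was at 6.74, 5.29 and 7.12 in Ota arrays, against 9.48, 9.02 and 9.73 in control arrays. It fell by 3.03 ± 0.40 on the log2 scale (adjusted p = 0.000197, limma), and of its 4 other probe sets 1 fell, at -0.81 ± 0.19, while 3 lay between -0.20 and 0.16. B3GALT6, a galactosyltransferase that builds the linker of glycosaminoglycans, was at 6.63, 6.57 and 7.27 in Ota and at 9.36, 9.45 and 9.76 in control arrays, and its other probe set fell by 1.07 ± 0.12. UCP2, a carrier of the mitochondrial inner membrane, was at 9.66, 9.86 and 9.67 in Ota and at 12.18, 12.11 and 12.07 in control arrays. It was the brightest gene of the 12 falls, and its probe sets gave -2.39 ± 0.11 and -2.33 ± 0.16. TSPAN31, a tetraspanin, likewise gave -2.32 ± 0.22 and -2.30 ± 0.20. TAF5L, a subunit of histone acetyltransferase complexes, fell by 2.35 ± 0.16 on its brightest probe set and was at 0.16 ± 0.10 on the other. TMT1B, METTL23 and NUP62CL, each read from 1 tested probe set, fell to differences of -2.68 ± 0.29, -2.60 ± 0.16 and -2.42 ± 0.22. TMT1B encodes a thiol methyltransferase, METTL23 a methyltransferase-like protein and NUP62CL a relative of a nucleoporin. PGP, a phosphatase that removes phosphoglycolate, was at 6.80, 5.72 and 7.21 in Ota and at 8.99, 8.84 and 8.96 in control arrays. In 8 of the 12 falls, NRG1, B3GALT6, TMT1B, METTL23, NUP62CL, STAU2, PGP and NABP1, the lowest Ota array was replicate 2. PLPP5, a lipid phosphatase, fell by 2.26 ± 0.24 on its brightest probe set, and 1 of its 3 others fell.

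**Figure D2:**
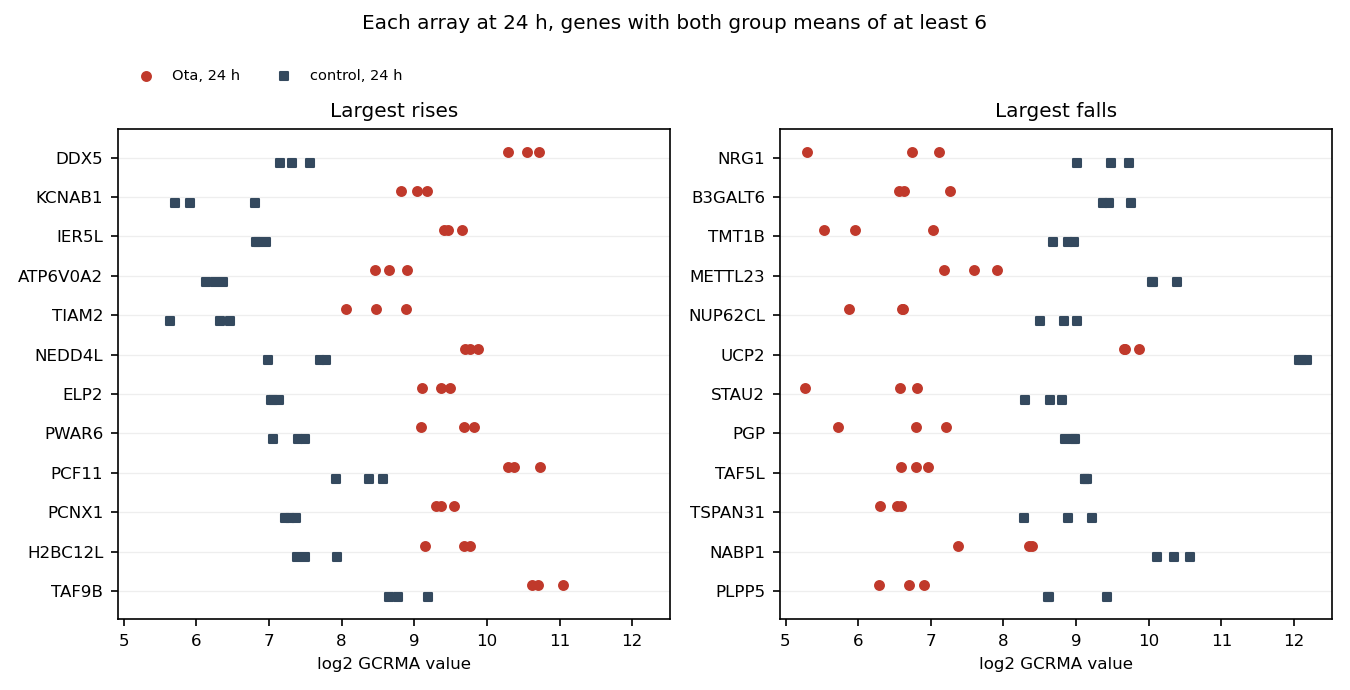
Log2 GCRMA value of each of the 3 Ota (circles) and 3 control (squares) arrays at 24 h for the 12 largest rises and 12 largest falls among called genes with both means of at least 6. Genes whose arrays overlapped between the groups were not eligible. DDX5 is at 10.29 to 10.72 in Ota against 7.15 to 7.56 in control and UCP2 at 9.66 to 9.86 in Ota against 12.07 to 12.18 in control.

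Agreement between probe sets was uneven, and more often lacking among the rises. Where several probe sets of a gene are given, their values come from a fit over all 19456 probe sets tested, of which 12.3% were called higher and 19.0% lower. Of 655 genes called higher with further tested probe sets, all of the others were also called higher in 78 (11.9%), none was called in 276 (42.1%), and at least 1 was called lower in 189 (28.9%). Of 1034 genes called lower, these counts were 332 (32.1%), 327 (31.6%) and 233 (22.5%). Of the 2226 genes with at least 3 tested probe sets, all were called higher in 15 genes and all lower in 55. Among the 15, ATF6, the membrane-bound transcription factor that senses unfolded proteins in the endoplasmic reticulum, had 4 probe sets higher, the weakest by 0.34 ± 0.11, the brightest by 0.93 ± 0.11 and another by 1.37 ± 0.14. NUDT3, a phosphatase of inositol pyrophosphates, had 4 between 1.08 and 1.44, and OSTM1, the partner of a lysosomal chloride transporter, 4 between 0.72 and 1.87. FKBP11, a prolyl isomerase of the secretory pathway, was at 9.33, 10.01 and 9.20 in Ota and at 7.87, 8.07 and 7.89 in control arrays, with its 3 probe sets at 1.57 to 2.19. GUCY1A1, a subunit of the nitric oxide receptor guanylate cyclase, and WDFY3-AS2, an antisense RNA gene, had 3 each at 0.64 to 1.54 and 0.59 to 1.35. Among the 55, KDELR3, which returns proteins to the endoplasmic reticulum, was at 9.06, 9.37 and 9.15 in Ota and at 11.07, 11.31 and 11.28 in control arrays, with 3 probe sets at -2.03 ± 0.13, -1.09 ± 0.16 and -1.96 ± 0.12. TINF2, a protein of the telomere-capping shelterin complex, had 3 at -2.12 to -1.80. RPE, an epimerase of the pentose phosphate pathway, had 3 at -1.91 to -1.54, and USP21, a deubiquitinase, 3 at -2.04 to -1.42. NABP1, a single-stranded DNA binding protein, and PCIF1, which methylates the first base of capped mRNAs, also fell on all 3 of theirs, at -2.31 to -0.78 and -1.72 to -0.67.

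Genes whose probe sets were called in both directions numbered 487, which is 9.37% of the 5200 with at least 2 tested probe sets, and 18 of them are named here. ATP2A2, the calcium pump of the endoplasmic reticulum, gave -1.26 ± 0.14 on its brightest probe set but 1.90 ± 0.15 and 1.94 ± 0.20 on 2 others. AKT2, a kinase of insulin signalling, gave 2.27 ± 0.16 and -0.93 ± 0.14. NEDD4L, a ubiquitin ligase that restrains the epithelial sodium channel, gave 2.29 ± 0.19, 1.86 ± 0.21 and -0.96 ± 0.18. ELP2, a subunit of the Elongator complex, had 3 probe sets higher, 1 lower and 1 not called. STAU2, an RNA transport protein, gave -2.36 ± 0.32 and 1.88 ± 0.17, and NR2C1, an orphan nuclear receptor, -0.63 ± 0.09 and 1.76 ± 0.11. ATP6V0A2, a proton pump subunit, gave 2.42 ± 0.12, 0.49 ± 0.16 and -1.65 ± 0.27, and PCNX1, a membrane protein, had 2 higher and 1 lower. For such genes a direction of the gene as a whole is not settled by these values. The 2 directions were not spread evenly over the platform's kinds of probe set. Of the probe sets called higher in these 487 genes, 79.5% were of the plain kind, named _at, and 16.1% of the kind _s_at, which is shared by several transcripts. Of the 633 called lower, 47.2% were plain and 253 were of the kind _s_at. Over all probe sets tested 16.1% of 10945 plain probe sets rose and 17.8% fell, against 7.65% and 21.5% of 6446 of the kind _s_at. Of all 2400 probe sets called higher, 1759 were plain and 493 of the kind _s_at. Of all 3701 called lower, 1947 were plain and 1386 of the kind _s_at. A similar lean was thus present over all probe sets and was not particular to the 487 genes. What this difference in kind stands for was not tested. When all probe sets of a gene were averaged in place of reading the brightest, 12 of the 113 named genes that could be followed no longer passed and 11 changed sign. That average also took in probe sets below the filter, which can make a change smaller. Lost calls therefore need not stem from disagreement between tested probe sets.

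**Figure D3:**
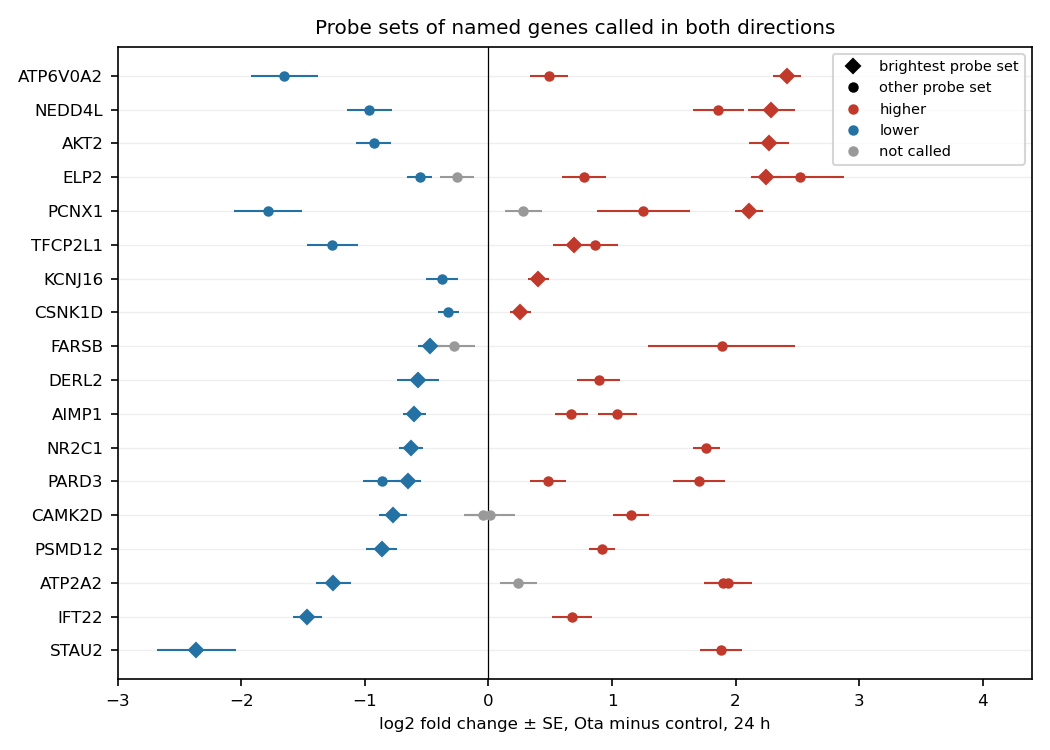
Log2 fold change ± SE of Ota minus control at 24 h (x axis) for every tested probe set of the 18 named genes with probe sets called in both directions (rows); diamonds are the brightest probe set of each gene. STAU2 spans -2.36 to 1.88 and PCNX1 -1.78 to 2.11.

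Gene lists were read against all genes tested. They held 1886 genes, of which 1534 were tested, and their medians are given beside the median of all genes, -0.06. A list's share of calls near 9.44% higher and 21.6% lower is therefore what the table gives as a whole.

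**Figure D4:**
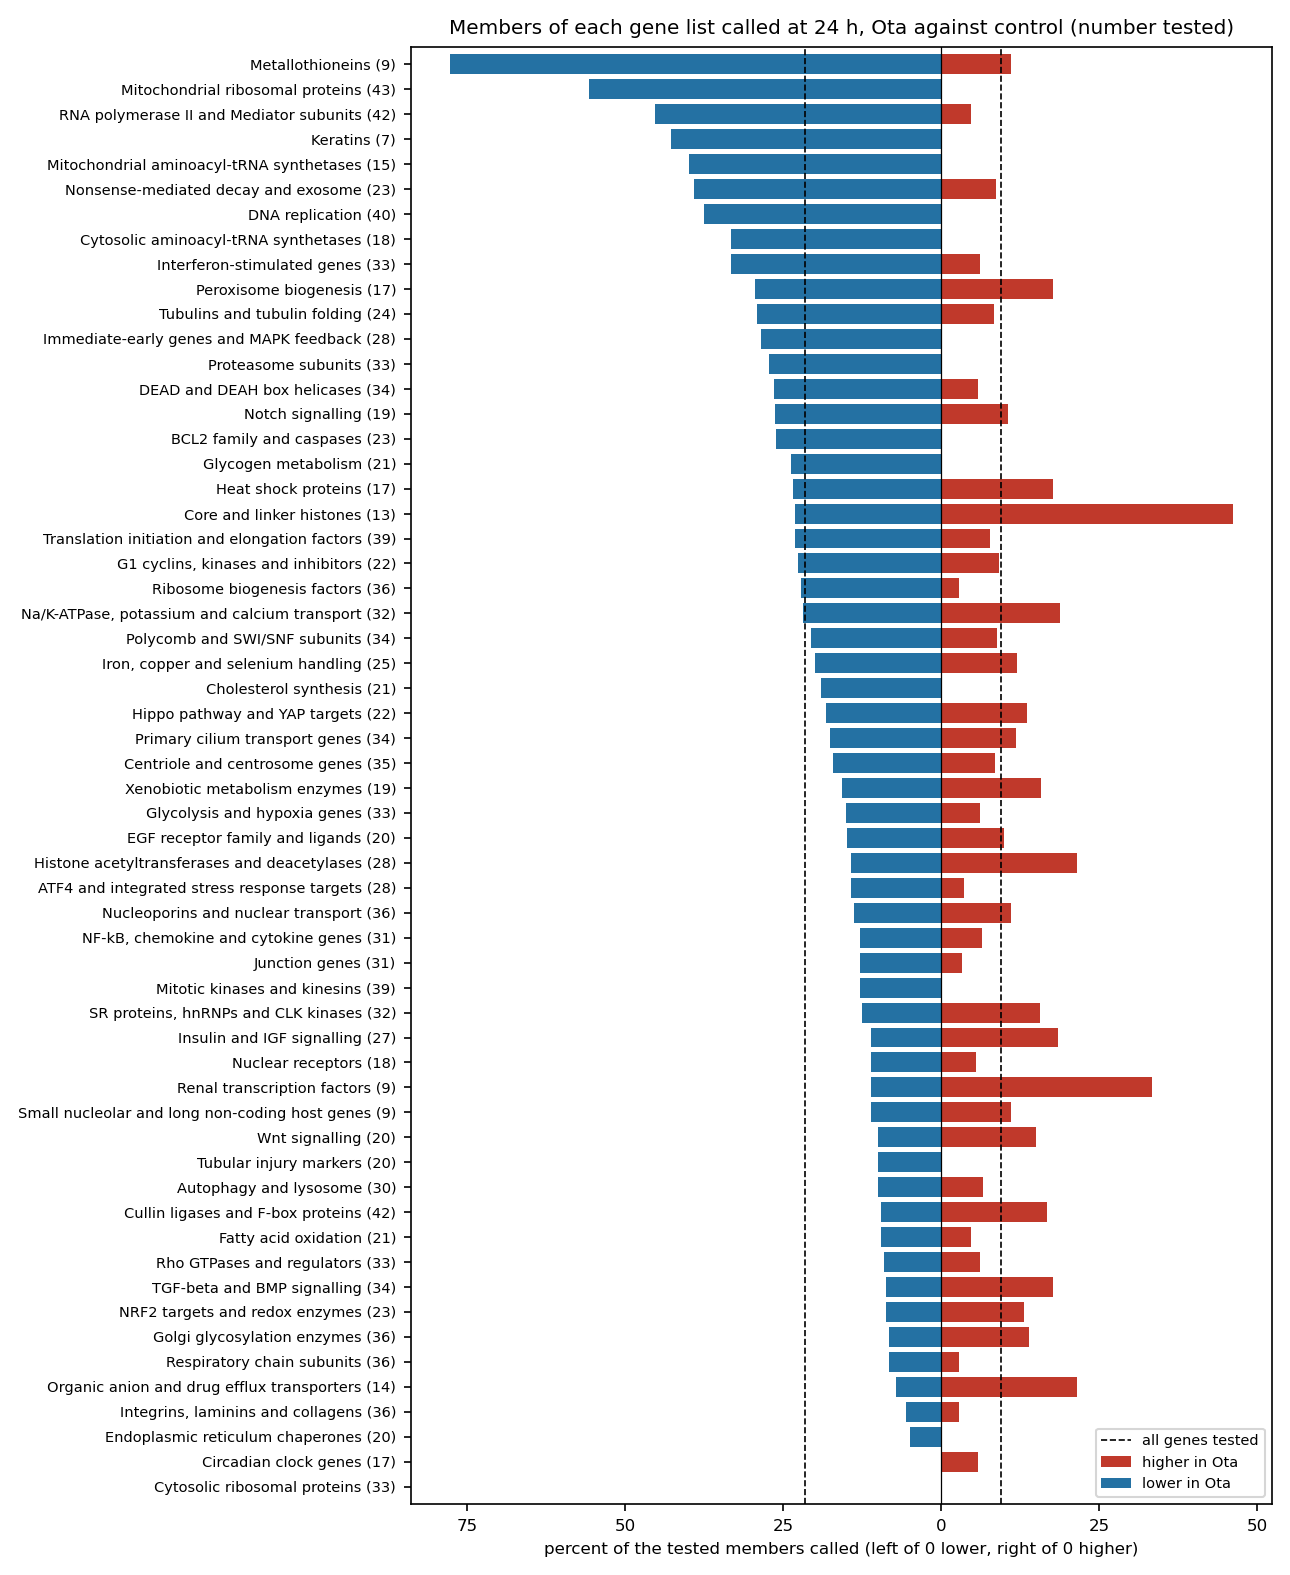
Percent of the tested members of each of 58 gene lists called higher (right of 0) or lower (left of 0) in Ota at 24 h, with the number tested in brackets and dashed lines at the 9.44% and 21.6% of all genes tested. The lists of mitochondrial ribosomal proteins and of RNA polymerase II and Mediator stand left of the line, and cytosolic ribosomal proteins have no bar in either direction.

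Mitochondrial ribosomal proteins, which translate the few proteins encoded by mitochondrial DNA and are themselves encoded in the nucleus, were lower: 24 of 43 fell (55.8%), 0 rose and the list's median was -0.39. The median was -0.35, -0.42 and -0.34 in the pairs of replicates 1, 2 and 3. Over the other settings tried, 19 to 27 fell, at most 2 rose and the median stayed between -0.41 and -0.26. MRPS16, a protein of the small subunit, was at 9.65, 9.54 and 9.40 in Ota arrays, against 10.89, 10.86 and 10.82 in control arrays, and both of its probe sets fell, at -1.33 ± 0.09 and -0.59 ± 0.11. MRPL16, of the large subunit, was at 6.57, 6.55 and 6.77 in Ota and at 8.29, 8.42 and 8.63 in control arrays. MRPL24, also of the large subunit, was at 9.23, 9.47 and 9.08 in Ota and at 10.37, 10.33 and 10.52 in control arrays. In these 3 genes the arrays of the groups did not overlap (adjusted p of 1.89e-06, 1.20e-05 and 4.60e-05, limma). Fold changes over the list ran between -1.81 and 0.22. Cytosolic ribosomal proteins, set beside them, had 0 of 33 called in either direction, with values between -0.12 and 0.23 and a median of 0.04. The 36 respiratory chain subunits had a median of 0.01, with 3 lower and 1 higher. NDUFB10, a subunit of complex I, fell by 0.90 ± 0.11, NDUFS1 and SDHA were lower at -0.34 and -0.26, and NDUFV2 rose by 0.25. Without Ota replicate 2, 1 of the chain's subunits was lower. Mitochondrial aminoacyl-tRNA synthetases, which charge tRNAs for the same ribosome, had 6 of 15 lower and 0 higher, with a median of -0.20. Only 2 were lower with the 6 arrays of 24 h alone or without Ota replicate 2, and 3 without control replicate 3. VARS2, for valine, was at 7.79, 7.82 and 7.87 in Ota and at 8.57, 8.93 and 8.71 in control arrays. AARS2, for alanine, fell by 0.82 ± 0.13 with its other probe set at 0.03 ± 0.10, and SARS2, for serine, fell by 0.95 ± 0.27 from levels near the filter. The fall of SARS2 no longer passed in 5 of 16 other settings, among them without Ota replicate 2, control replicate 1 or control replicate 3.

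The promoters of mitochondrial ribosomal protein genes were read because 24 of the 43 members fell. Promoters of 8868 of the 10699 genes tested matched by symbol, each 300 bases from 250 before to 50 after the gene start, from RefSeq (GRCh38.p14). Motifs were searched by their letters on both strands. The ETS core was taken as CCGGAAG. The core of YY1, a zinc finger factor, was taken as AAGATGG. The TATA box was read as TATAAA. The CCAAT box was read as named, and the GC box as GGGCGG. An ETS core can run into a YY1 core over the letters AAG that they share. The 3 promoters below belong to the members just described and show a promoter with both, with 1 and with neither of the ETS and YY1 cores; capitals mark the matches on either strand.
MRPS16: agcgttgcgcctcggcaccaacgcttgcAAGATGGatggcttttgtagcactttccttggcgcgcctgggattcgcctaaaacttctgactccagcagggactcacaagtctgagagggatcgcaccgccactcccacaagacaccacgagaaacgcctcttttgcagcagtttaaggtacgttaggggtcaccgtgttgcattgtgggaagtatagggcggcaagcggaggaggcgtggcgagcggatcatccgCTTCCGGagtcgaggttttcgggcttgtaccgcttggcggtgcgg
MRPL16: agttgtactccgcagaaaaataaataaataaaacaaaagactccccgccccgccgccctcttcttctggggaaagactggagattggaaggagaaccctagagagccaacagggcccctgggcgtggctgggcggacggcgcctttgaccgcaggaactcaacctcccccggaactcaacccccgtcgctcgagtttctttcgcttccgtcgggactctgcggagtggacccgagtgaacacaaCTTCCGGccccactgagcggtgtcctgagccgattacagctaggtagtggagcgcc
MRPL24: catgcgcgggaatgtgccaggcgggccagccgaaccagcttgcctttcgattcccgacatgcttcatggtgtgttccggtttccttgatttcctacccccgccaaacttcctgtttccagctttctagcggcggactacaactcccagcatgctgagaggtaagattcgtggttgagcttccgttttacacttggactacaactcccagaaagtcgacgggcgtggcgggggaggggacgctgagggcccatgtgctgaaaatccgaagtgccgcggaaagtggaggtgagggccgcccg
They lie at chr10:73252595-73252894, chr11:59810729-59811028 and chr1:156741039-156741338, each on the minus strand. MRPS16 holds 1 ETS core and 1 YY1 core, MRPL16 holds 1 ETS core, and MRPL24 holds neither within this window. Of 36 promoters of the list 33.3% held the ETS core, against 20.5% of all 8868, and 33.3% held the YY1 core, against 7.93%. Of 31 promoters of the RNA polymerase II and Mediator list, described next, 32.3% held the ETS core and 9.68% the YY1 core. The share with the ETS core was thus not particular to mitochondrial ribosomal proteins. Among the 21 promoters of members that fell, 9 held the ETS core, 8 the YY1 core and 12 at least 1 of them. Among the 15 of members not called lower, 3 held the ETS core, 4 the YY1 core and 6 at least 1. Across all genes the ETS core was in 24.1% of 1925 promoters of genes that fell and in 19.6% of 820 of genes that rose. The TATA box was in 5.49% of the promoters of genes that rose, in 3.58% of those of genes that fell and in 5.03% of all. The CCAAT box was in 33.3% of the list against 37.5% of all, and the GC box in 72.2% against 71.5%. These matches are descriptions of the letters in these windows.

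Subunits of RNA polymerase II and of Mediator, the complex that carries signals from transcription factors to the polymerase, were lower in 19 of 42 cases (45.2%) and higher in 2, with a median of -0.27. With arrays aligned on the median of the genes tested 12 were lower and 4 higher, and the median, at -0.15, kept its sign. POLR2L, a small subunit shared by the nuclear RNA polymerases, was at 7.48, 7.47 and 7.47 in Ota arrays, against 9.36, 9.18 and 8.88 in control arrays. Its Ota arrays were almost level, and both of its probe sets fell, giving -1.67 ± 0.12 and -2.05 ± 0.26. MED16, a subunit of the Mediator tail, was at 7.22, 6.72 and 7.23 in Ota and at 8.74, 8.83 and 8.57 in control arrays, with 4 of its 5 probe sets lower. MED28 fell by 1.06 ± 0.11, with 5 of its 6 probe sets lower. The 2 members that rose were MED13 and MED30, both by 0.50. The catalytic subunit genes POLR2A and POLR2B were at -0.05 and 0.00 and did not pass. These 4 genes and those named next in this paragraph were chosen after their values were seen. MED22 was at -1.79, MED21 at -1.49 and MED20 at -1.32, and CCNH, the cyclin partner of the kinase CDK7, fell by 1.16. CDK9 and CCNT1, the kinase and cyclin that release paused polymerase, fell, at -0.51 and -0.37, as did their inhibitor HEXIM1, at -0.32. Among histone acetyltransferases and deacetylases 6 of 28 rose and 4 fell, against 2 each without Ota replicate 2. Without control replicate 2, 3 rose, and 2 fell without Ota replicate 1, without control replicate 1 or with the 6 arrays of 24 h alone. KAT8, which acetylates histone H4, rose by 0.89 ± 0.11, while its other, dim probe set, at 0.60 ± 0.33, did not pass. SMARCC2, a core subunit of the SWI/SNF remodeller, fell by 1.22 ± 0.14, in a list with 7 of 34 lower and 3 higher.

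**Figure D5:**
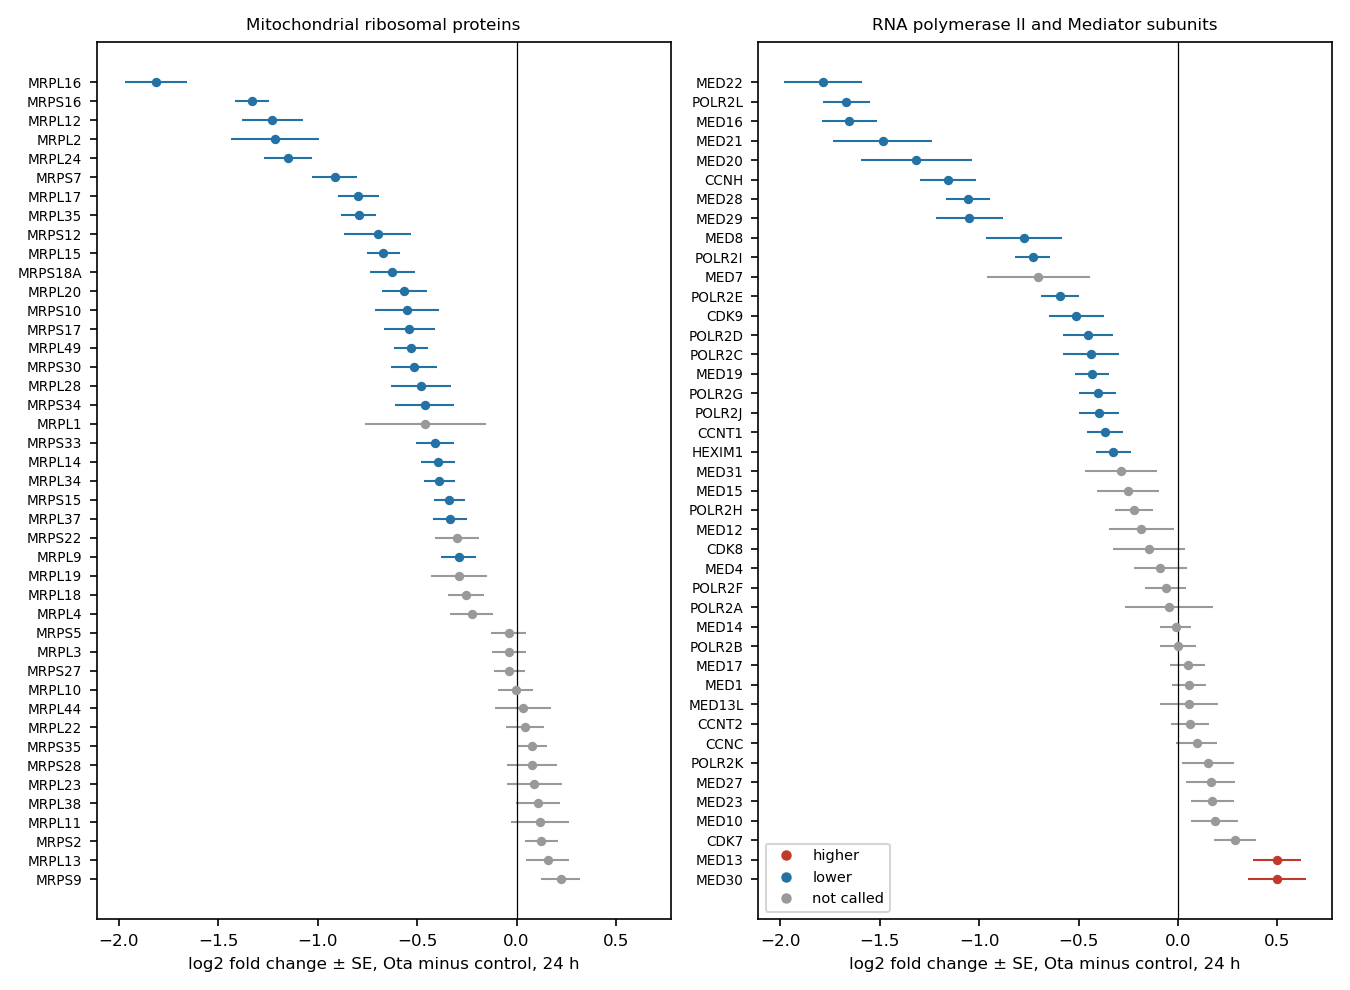
Log2 fold change ± SE of Ota minus control at 24 h for each tested mitochondrial ribosomal protein gene (left panel, 43 genes) and each tested gene of the RNA polymerase II and Mediator list (right panel, 42 genes), sorted by value and coloured by call. On the left 24 members are lower and 0 higher, from MRPL16 at -1.81 to MRPS9 at 0.22; on the right 19 are lower and 2 higher.

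Among RNA decay genes, the list of nonsense-mediated decay and exosome genes had 9 of 23 lower (39.1%) and 2 higher. The median was -0.23, or -0.11 with 6 lower and 4 higher with arrays aligned on the median of the genes tested. Of the 9, 8 encode subunits of the exosome, which degrades RNA from its 3' end, and the other was SMG5. The share of exosome subunits among the 23 is not given here. The counts therefore do not set the exosome apart from the rest of the list. EXOSC1 was at 8.97, 9.00 and 9.12 in Ota arrays, against 9.62, 9.71 and 9.73 in control arrays. EXOSC4 fell on all 3 of its probe sets, at -1.49 ± 0.24, -1.82 ± 0.22 and -1.23 ± 0.17, and EXOSC3 fell by 1.29 ± 0.18 with 2 of 3 probe sets lower. The members that rose were DCP2, the decapping enzyme, by 0.51 and RBM8A, of the exon junction complex, by 0.66. Among DEAD and DEAH box helicases 9 of 34 fell (26.5%, against 21.6% of all genes) and 2 rose, the risers being DDX5 and DDX52, at 3.17 and 1.74. Of the helicases 5 fell with the 6 arrays of 24 h alone or without Ota replicate 1, Ota replicate 2 or control replicate 2. Among SR proteins, hnRNPs and CLK kinases, which steer splicing, 5 of 32 rose and 4 fell, with 3 rising in the 6 arrays of 24 h alone or without control replicate 1 or 2. HNRNPA3 was at 12.72, 12.64 and 12.56 in Ota and at 11.34, 11.05 and 11.12 in control arrays, the brightest gene among the rises of at least 2-fold named here. Another probe set rose by 1.26 ± 0.18 and a further one, at 0.07 ± 0.14, did not pass. POM121, a membrane nucleoporin, was at 6.94, 7.60 and 6.76 in Ota and at 5.06, 5.07 and 5.06 in control arrays. The control values were almost flat, below every Ota array, and no fold is given. In its list of nuclear transport genes 4 of 36 rose and 5 fell, with 1 rising in the 6 arrays of 24 h alone and 2 without Ota replicate 3 or control replicate 1. SNHG19, a host gene of a small nucleolar RNA, rose 1.62-fold.

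Translation genes outside the mitochondrion changed in parts, some lists at shares near those of all genes. The phenylalanyl-tRNA synthetase has 2 kinds of subunit: FARSA was at 8.31, 7.68 and 8.02 in Ota arrays, against 8.83, 8.50 and 8.45 in control arrays, and FARSB at 10.25, 10.23 and 10.43, against 10.69, 10.90 and 10.73. FARSA fell by 0.59 ± 0.17 with its other probe set at -0.46 ± 0.15, also called. Its call was lost in 4 of 17 other settings tried, among them without Ota replicate 2 or control replicate 1. FARSB fell by 0.47 ± 0.10 on its brightest probe set, while a dim probe set rose by 1.89 ± 0.60 and another was at -0.28 ± 0.17. Of 18 cytosolic aminoacyl-tRNA synthetase genes 6 fell (33.3%) and 0 rose, with a median of -0.08. With arrays aligned on the median of the genes tested, this median turned to 0.04, with 4 lower and 1 higher. Without Ota replicate 2 or control replicate 1, 3 of these genes fell. AIMP1, a scaffold of the synthetase complex, fell by 0.60 ± 0.10 on its brightest probe set but rose by 0.67 ± 0.13 and 1.04 ± 0.16 on its 2 others. EIF2B4, a subunit of the exchange factor that recharges initiation factor 2, was at 7.35, 6.99 and 7.36 in Ota and at 8.57, 8.86 and 8.54 in control arrays. Its 2 probe sets gave -1.42 ± 0.12 and -1.45 ± 0.15. Of 39 initiation and elongation factor genes 9 fell (23.1%) and 3 rose (7.69%), near the 21.6% and 9.44% of all genes. Of this list 5 fell without Ota replicate 1, Ota replicate 2 or control replicate 1. Of 36 ribosome biogenesis genes 8 fell (22.2%), also near the share of all genes, and 1 rose (2.78%). Only 2 fell with the 6 arrays of 24 h alone, and 5 without any 1 of the arrays other than control replicate 2. UTP15, of the small-subunit processome, fell by 0.67 ± 0.12 and no longer passed when its probe sets were averaged.

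Of 28 immediate-early and MAPK feedback genes 8 fell and 0 rose. The share that fell, 28.6%, was near the 21.6% of all genes. The list had a median of -0.31 that was -0.15 without Ota replicate 2, and with arrays aligned on the median of the genes tested 8 fell and 1 rose. IER2 was at 9.06, 9.14 and 9.21 in Ota arrays, against 10.08, 10.44 and 10.20 in control arrays (adjusted p = 1.86e-05, limma). CCN1, a secreted matrix protein induced by growth factors and YAP, fell on both probe sets, at -1.14 ± 0.23 and -1.48 ± 0.27. Among EGF receptor family genes 3 of 20 fell, NRG1, SHC1 and SOS2, and 2 rose, GRB2 and TGFA. Without Ota replicate 1 or control replicate 1 only 1 fell, and 5 fell with the replicate block. EGFR itself was at 11.70, 11.70 and 11.63 in Ota and at 11.89, 11.86 and 11.85 in control arrays, which did not pass (-0.19 ± 0.12, adjusted p = 0.275, limma), although 1 of its 4 other probe sets fell by 0.71 ± 0.16. DVL2, which relays Wnt signals, was at 6.20, 6.02 and 6.42 in Ota and at 8.33, 8.52 and 8.42 in control arrays, and its other probe set fell by 1.42 ± 0.18. The rest of the Wnt list had 1 further fall, DVL1, and 3 rises, LGR4, FZD6 and ZNRF3, of 20, and 5 rises with the replicate block. In the Hippo list 4 of 22 fell (18.2%) and 3 rose (13.6%), near the 21.6% and 9.44% of all genes, and the median was 0.01. Those that fell were the transcription factors TEAD2, TEAD3 and TEAD4 and the YAP target CCN1. Those that rose were LATS2, MOB1A and SAV1, which belong to the kinase core that restrains YAP. TEAD4 fell on both probe sets, at -1.10 ± 0.14 and -0.81 ± 0.13. When probe sets were averaged per gene, the Hippo list had 6 lower and 0 higher, and with the replicate block it had 5 in each direction. Of 34 TGF-beta and BMP genes 6 rose and 3 fell, with BMP4, a secreted ligand, at 4.16, 4.62 and 4.51 in Ota and at 3.84, 3.66 and 3.87 in control arrays, close to the filter. Notch signalling had 5 of 19 lower and 2 higher, the ligand JAG1 and the target HES1. In the Notch list 2 fell with the 6 arrays of 24 h alone, and 3 without Ota replicate 3, control replicate 1 or control replicate 2. APH1A, of the protease that cleaves Notch, fell by 0.41 ± 0.09. AKT2 led an insulin and IGF list with 5 of 27 higher and 3 lower, of which 2 were higher without Ota replicate 2 and 3 without any 1 of the other arrays except Ota replicate 3.

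The stress lists described here differed in their share of calls at 24 h, against 31.0% of all genes called in either direction. Called were 5% of endoplasmic reticulum chaperone genes, 16.7% of autophagy and lysosome genes and 17.9% of ATF4 and integrated stress response genes. The share was 21.7% for NRF2 targets and redox genes, 26.1% for BCL2 family and caspase genes and 41.2% for heat shock genes. NFE2L2, the gene of the transcription factor NRF2, was at 11.92, 11.84 and 11.83 in Ota arrays, against 11.76, 11.61 and 11.74 in control arrays. The gene of its inhibitor KEAP1 was at 9.25, 9.20 and 9.27, against 9.37, 9.48 and 9.30. Neither passed (0.16 ± 0.09 and -0.15 ± 0.08, adjusted p = 0.177 and 0.206, limma). Of 23 NRF2 targets and redox genes 3 rose, TXN, GSR and ABCC3, and 2 fell, NFE2L3 and NQO1. Without Ota replicate 2, 1 gene of this list rose. NFE2L3, an NRF2 relative, fell on both probe sets, at -3.38 ± 0.31 and -2.10 ± 0.31, with Ota arrays at 5.00, 3.81 and 3.58, near the filter. In the ATF4 and integrated stress response list 4 of 28 fell, DDIT4, JDP2, TRIB3 and XBP1, and 1 rose, STC2. DDIT4, an inhibitor of the kinase mTOR, was at 11.37, 11.24 and 10.98 in Ota and at 12.88, 12.99 and 12.58 in control arrays. Of 20 endoplasmic reticulum chaperone genes 1 fell, DERL2, which had another probe set higher by 0.89 ± 0.17. Its call was lost without Ota replicate 1 or 2 or control replicate 1 or 3. Of 16 other settings, these included, the call was lost in 6 and the sign changed in 1. TP53I3, a quinone oxidoreductase, was at 5.38, 5.68 and 5.66 in Ota and at 8.18, 7.87 and 8.11 in control arrays. Heat shock genes had 3 of 17 higher and 4 lower, with the co-chaperones DNAJB6 and DNAJB4 up by 1.38 ± 0.14 and 0.66 ± 0.09 and CHORDC1, a partner of HSP90, down by 1.20 ± 0.18. Of 23 BCL2 family and caspase genes 6 fell and 0 rose, with a median of -0.09 that turned to 0.03 with arrays aligned on the median of the genes tested. BCL2L2, a survival protein, was at 5.15, 4.54 and 5.01 in Ota and at 6.70, 6.51 and 6.75 in control arrays. ATG7, which drives conjugation in autophagy, fell on 2 probe sets, at -1.08 ± 0.16 and -0.81 ± 0.25, and was at 0.10 ± 0.12 on another.

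Metabolic lists held single large falls. GYS1, the muscle-type glycogen synthase, was at 4.61, 4.03 and 4.68 in Ota arrays, against 7.74, 7.46 and 7.63 in control arrays. In its list 5 of 21 were lower (23.8%, near the 21.6% of all genes) and 0 higher. With the 6 arrays of 24 h alone 3 of that list were lower, and with the replicate block 3 were higher. PEX10, which recycles the peroxisomal import receptor, was at 5.16, 5.32 and 5.76 in Ota and at 7.43, 7.48 and 7.46 in control arrays. PEX19, the chaperone of peroxisomal membrane proteins, fell on both probe sets, at -1.06 ± 0.11 and -0.50 ± 0.16. Of 17 peroxisome genes 5 fell and 3 rose. With the 6 arrays of 24 h alone 3 fell and 1 rose, and 1 rose without control replicate 1. TM7SF2, a sterol reductase, was at 6.55, 5.90 and 6.12 in Ota and at 8.05, 8.63 and 7.76 in control arrays. With SC5D, PMVK and EBP it made 4 falls among 21 cholesterol synthesis genes (19.0%, near the 21.6% of all genes), whose median was -0.32. With the replicate block 10 of them fell and 1 rose. ACO1, which as an iron regulatory protein binds iron-responsive mRNAs, fell to 8.07, 7.93 and 7.80 in Ota arrays, against 8.91, 8.92 and 8.82 in control arrays. ACADSB, a short branched-chain acyl-CoA dehydrogenase, rose 2.27-fold on its brightest probe set but did not pass with the mean of its probe sets. PDK1, which restrains pyruvate dehydrogenase, fell by 0.70 ± 0.13 with its other probe set at 0.00 ± 0.21.

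Structural genes had 7 of 24 tubulin and tubulin folding genes lower (29.2%, against 21.6% of all genes) and 2 higher. Their median of -0.30 was -0.18 with arrays aligned on the median of the genes tested. TUBG2, a gamma tubulin, fell to 5.18, 5.15 and 5.24 in Ota arrays, against 6.12, 5.84 and 6.20 in control arrays. SPICE1, a centriole gene, fell by 3.25 ± 0.40 to between 2.28 and 4.36 in Ota, at or near the floor, and IFT22, of the transport along cilia, fell by 1.47 ± 0.12 on 1 probe set and rose by 0.68 ± 0.16 on the other. Of 7 keratin genes 3 fell, and 1 without Ota replicate 3, control replicate 1 or control replicate 2. KRT10 fell on all 3 of its probe sets, at -0.66 ± 0.09, -0.87 ± 0.11 and -0.82 ± 0.11. KRT18, a keratin of simple epithelia, was at 12.12, 12.14 and 12.03 in Ota and at 12.54, 12.54 and 12.38 in control arrays, and KRT19 at 11.93, 11.76 and 11.65, against 12.38, 12.24 and 11.97. The calls of KRT18 and KRT19 were lost when arrays were aligned on the median of the genes tested. They were also lost without control replicate 1, control replicate 2 or Ota replicate 3, and that of KRT19 without Ota replicate 2. Of 17 other settings, KRT18 lost its call in 4 and KRT19 in 8. Junction genes had 4 of 31 lower and 1 higher, the riser being the adhesion receptor NECTIN2, and 7 lower and 3 higher with the replicate block. PARD3, a polarity protein, had 2 probe sets lower and 2 higher. Integrins, laminins and collagens had 2 of 36 lower and 1 higher, and 5 lower and 3 higher with the replicate block. Without control replicate 3, 4 were lower. ITGB4, of hemidesmosomes, fell by 0.80 ± 0.18.

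Innate, transport and turnover genes followed. Of 33 interferon-stimulated genes 11 fell (33.3%) and 2 rose, PARP9 and TAP2, with a median of -0.11 that turned to 0.01 with arrays aligned on the median of the genes tested, with 8 lower and 3 higher. IFI35 was at 2.39 to 2.76 in Ota arrays, the floor of the scale, against 7.28, 6.95 and 6.81 in control arrays. Of 31 NF-kB, chemokine and cytokine genes 4 fell, CXCL2, CXCL5, CXCL3 and IRAK1, and 2 rose, TNFAIP3 and TNFSF10. With the replicate block 7 fell and 5 rose, without control replicate 3 the counts were 2 and 4, and without Ota replicate 1 or control replicate 1, 2 fell. TNFSF10, the death ligand TRAIL, rose on all 3 probe sets, by 0.59 ± 0.11, 0.83 ± 0.11 and 1.06 ± 0.24. Among potassium and calcium transport genes 6 of 32 rose and 7 fell, with 2 rising without Ota replicate 1 and 3 without control replicate 2, and 3 of those named by the rule, ATP2A2, CAMK2D and KCNJ16, had probe sets called both ways. Of 33 proteasome genes 9 fell (27.3%, against 21.6% of all genes) and 0 rose, but 7 fell and 6 rose when probe sets were averaged per gene. PSMD12, a subunit of the regulatory particle, gave -0.86 ± 0.13 and 0.92 ± 0.10. Among cullin ligases and F-box proteins 7 of 42 rose and 4 fell. FBXW8, a substrate receptor, was at 7.58, 7.66 and 7.33 in Ota and at 5.99, 6.49 and 6.40 in control arrays. Golgi glycosylation enzymes had 5 of 36 higher and 3 lower. Without Ota replicate 1, Ota replicate 3 or control replicate 1, 3 were higher, and without Ota replicate 2 or control replicate 1, 0 were lower. With the 6 arrays of 24 h alone or without control replicate 3, 1 was lower. MGAT4A was up by 0.96 ± 0.12 on 1 of its 3 probe sets, the others at -0.49 ± 0.23 and 0.57 ± 0.26.

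Genes of toxin handling and kidney identity changed in single cases. The organic anion transporters SLC22A6 and SLC22A8, which carry ochratoxin A into tubule cells, were at 2.31 to 2.33 and 2.34 to 2.36 in Ota arrays, against 2.30 to 2.31 and 2.33 to 2.34 in control arrays. The efflux pump genes ABCC2 and ABCG2 were likewise at 2.35 to 2.38 and 2.04 to 2.05 in Ota, against 2.33 to 2.34 and 2.03 to 2.04 in control. These 4 genes stayed below the filter and were not tested. Of 14 transporter genes tested 3 rose, SLC22A4, ABCC3 and ABCC4, and 1 fell, ABCC10. SLC22A4, an organic cation and ergothioneine transporter, was at 7.53, 7.73 and 7.01 in Ota and at 6.36, 6.68 and 6.51 in control arrays. Of 19 xenobiotic metabolism genes 3 rose and 3 fell, with CYP2U1 higher by 0.65 ± 0.15 on 1 probe set and at 0.06 ± 0.13 on the other. Renal transcription factors had 3 of 9 higher, HOXD10, TFCP2L1 and SALL1, and 1 lower, CITED2. HOXD10 was at 8.30, 8.61 and 8.02 in Ota and at 6.97, 6.89 and 6.99 in control arrays. Of 20 tubular injury markers 2 fell, CCN1 and KRT18, and 0 rose. With the replicate block 5 fell and 1 rose, and without control replicate 3, 3 rose. CDH6, the cadherin of proximal tubule cells, was at 11.44, 11.39 and 11.61 in Ota and at 12.41, 12.54 and 12.67 in control arrays.

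The responses at 24 h and 72 h overlapped in part. Of the 1010 genes higher at 24 h, 415 (41.1%) were also higher at 72 h, where 17.1% of all genes were, 41 were lower and 554 were not called. Of the 2307 lower at 24 h, 777 (33.7%) were lower at 72 h, where 14.9% of all genes were, 190 were higher and 1340 were not called. Each comparison has its own control arrays. The difference between the responses passed for 2278 genes (21.3% of all), and the change was the larger one at 24 h in 1107 of them and at 72 h in 1171. It passed for 306 of the 1010 and 958 of the 2307. The 6 genes with the smallest p of this difference act in DNA replication, chromatin or the cell cycle. RNASEH2A, of the enzyme that removes RNA from DNA, was at 9.13, 9.07 and 9.24 in Ota arrays, against 10.73, 10.87 and 10.78 in control arrays at 24 h, a fall of 1.65 ± 0.09. At 72 h its mean was 9.96 in Ota and 9.44 in control arrays, higher by 0.52. CCNE1, the cyclin of the start of S phase, fell by 0.69 ± 0.11 at 24 h. At 72 h its mean was 7.02 in Ota and 5.41 in control arrays, against 6.98 in Ota and 7.67 in control arrays at 24 h. UHRF1, which helps to copy DNA methylation, fell by 0.43 ± 0.10 and E2F7, a repressor of E2F targets, by 0.60 ± 0.13 at 24 h. At 72 h UHRF1 averaged 10.13 in Ota and 8.21 in control arrays, and E2F7 averaged 8.31 in Ota and 6.34 in control arrays, higher by 1.92 and 1.96. NCAPH, of condensin, and ASF1B, a histone chaperone, did not pass at 24 h, at -0.18 ± 0.10 and -0.12 ± 0.11, with arrays that overlapped. At 72 h NCAPH averaged 7.28 in Ota and 5.16 in control arrays, and ASF1B averaged 9.31 in Ota and 6.88 in control arrays. In all 6 genes the control mean was lower at 72 h than at 24 h, and in UHRF1, NCAPH and ASF1B the Ota mean was lower too, so that the higher values at 72 h are relative to the controls of that time. Of 22 genes of G1 cyclins, kinases and inhibitors 5 fell at 24 h, CCNE1, E2F2, CDK2, E2F7 and CDK4, and 2 rose, RBL2 and CDKN1C, while 12 rose and 0 fell at 72 h. Mitotic kinase and kinesin genes had 5 of 39 lower at 24 h and 33 higher at 72 h, and for 30 of the 39 the difference passed. AURKB, a mitotic kinase, was at 7.84, 7.81 and 8.23 in Ota and at 9.00, 9.18 and 8.93 in control arrays at 24 h. Its fall at 24 h did not pass with the mean of its probe sets. At 72 h AURKB averaged 7.98 in Ota and 7.16 in control arrays, against 7.96 and 9.03 at 24 h. Its higher value at 72 h is thus relative to the controls of that time. Cholesterol synthesis genes had a median of -0.32 at 24 h and 0.58 at 72 h, with 15 of 21 differing, and endoplasmic reticulum chaperones one of 0.12 and -0.91, with 14 of 20 differing. Immediate-early genes had medians of -0.31 and 0.18, with 12 of 28 differing, and tubulins of -0.30 and 0.35, with 14 of 24. Mitochondrial ribosomal proteins had 10 of 43 lower at 72 h and a median of -0.11, and for 14 the difference passed. ATF6 rose at 24 h and was at -0.23 at 72 h (adjusted p of the difference = 0.000665, limma).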

How the data were processed

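RNA of HK-2 cells was measured on Affymetrix U133 Plus 2.0 arrays, 3 per group in 4 groups. The deposited values are log2 values that the authors computed with GCRMA, per the submitters' processing notes; its version is not given in the sources used here. Probe sets were named through the platform annotation, with symbols updated where possible: of 54675 probe sets, 62 were controls, 41091 had 1 symbol, 1801 several and 11721 none. Only probe sets with 1 symbol were used, and each gene was read from the brightest. A gene was tested where its log2 value was above 4 on at least 3 arrays. limma 3.58.1 (R 4.3.3) fitted 1 mean per group over all 12 arrays, with eBayes and Benjamini-Hochberg adjustment over the 10699 genes, and a call means an adjusted p below 0.05. The step was tested on simulated data, and the outcome of that test is not reported here. The 3 arrays per group limit the precision, and the files give no read depth. Scan dates and culture batches are not given in the sources used here. GCRMA scales arrays towards one distribution, so a change shared by most genes can be hidden. The deposited values were still not fully level between arrays. With quantile normalization repeated on them, 1126 genes were higher and 2167 lower.

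The numbers of the replicates paired the arrays at 24 h: over the genes tested, deviations from the group means of same-numbered Ota and control arrays correlated at 0.439, 0.323 and 0.455, against -0.286 to -0.079 for other pairs. Deviations within a group cancel out for each gene, so positive values of same-numbered pairs force negative ones elsewhere on average. The negative values are thus no separate support for the pairing. Genes were named by rule: among called genes whose arrays did not overlap and whose means were at least 6, the 12 largest rises and 12 largest falls; the 6 genes each way with at least 3 tested probe sets all called one way and the largest median; the called members of each list with the smallest p, 3 where at least 40% of the members were called and otherwise 1; 10 fixed genes, 1 of which is not reported here; and the 6 genes with the smallest p of the difference between times. The members and lists were chosen with earlier results of these data known. Promoter windows came from RefSeq (GRCh38.p14). Plots were drawn with matplotlib 3.10.9.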

Additional observations from a re-analysis of the deposited data

Results flagged for a closer look

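Of the 116 named genes tested, 71 had a response at 24 h that differed from that at 72 h in limma's test of the difference itself, where 21.3% of all genes did. The named genes were mostly chosen for their change at 24 h and 6 of them for this difference, so neither that count nor the 61 with the larger change at 24 h says anything of other genes. Each value below is the 24 h log2 fold change minus the 72 h one. Groups of 3 arrays are too small for a test of single outlying arrays.

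For 17 genes the 24 h value was above 0 and above that at 72 h: ACADSB (1.17), AKT2 (0.69), ATF6 (1.16), ATP6V0A2 (1.34), DDX5 (1.46), DNAJB4 (0.52), ELP2 (1.89), FBXW8 (1.28), HNRNPA3 (0.73), HOXD10 (0.86), KCNAB1 (2.06), NEDD4L (1.63), NUDT3 (0.70), PCF11 (0.77), PCNX1 (1.22), PWAR6 (1.44) and SLC22A4 (1.54). DDX5 was 1.72 higher at 72 h, so a rise was present at both times, while ACADSB was at 0.01 and FBXW8 at -0.04 at 72 h. IER5L (-0.51) and TNFSF10 (-0.83) rose at both times, more at 72 h.

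For 50 genes the 24 h value was below 0 and below that at 72 h. Among genes of division and DNA these were ASF1B (-2.55), AURKB (-1.89), CCNE1 (-2.30), E2F7 (-2.57), NABP1 (-1.58), NCAPH (-2.29), RNASEH2A (-2.17), SPICE1 (-2.65), TINF2 (-1.34), TUBG2 (-0.51) and UHRF1 (-2.35). Among genes of transcription, RNA and translation they were AARS2 (-0.94), EIF2B4 (-0.92), EXOSC4 (-1.14), MED16 (-1.21), MRPL16 (-0.87), MRPS16 (-0.57), NUP62CL (-1.94), PCIF1 (-0.76), POLR2L (-0.77), SMARCC2 (-0.74), STAU2 (-1.98), TAF5L (-1.41) and VARS2 (-0.50). Signalling, stress and immune genes were ATG7 (-0.90), BCL2L2 (-1.41), CCN1 (-1.12), DVL2 (-1.24), IER2 (-0.92), IFI35 (-2.87), KEAP1 (-0.43), NFE2L3 (-1.76), NRG1 (-1.78), TEAD4 (-0.98) and TP53I3 (-1.22). Genes of metabolism, organelles and structure were ACO1 (-0.76), B3GALT6 (-1.57), IFT22 (-0.57), ITGB4 (-0.91), KRT19 (-0.74), PEX10 (-1.22), PEX19 (-0.96), PGP (-2.24), PSMD12 (-0.59), PXMP4 (-0.77), RPE (-1.07), TM7SF2 (-1.02), TMT1B (-2.25), UCP2 (-1.73) and USP21 (-0.88). The falls of KRT18 (0.48) and MRPL24 (0.67) were the larger ones at 72 h.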

How the results depend on the processing

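The count of calls at 24 h stayed within 1.5 times of 3317 under every setting tried, at 2448 with only the 6 arrays of 24 h, 2831 without a filter and 3417 with a trended and robust eBayes. The count at least 2-fold, 760, was 465 when probe sets were averaged per gene, those below the filter included. The count of genes higher, 1010, was 1881 when arrays were aligned on the median of the genes tested, a setting chosen after seeing the data, as was leaving out the genes with probe sets called both ways, which left 2809 calls. Leaving out 1 of the 6 arrays of 24 h at a time gave 2507 to 3229 calls, 725 to 1137 higher, 1782 to 2223 lower, 631 to 899 at least 2-fold and 1807 to 2401 for the difference between times. With the replicate block 3940 genes were called, 1250 higher and 2690 lower, 768 at least 2-fold and 3022 for the difference between times, and it changed no call of the 116 named genes tested. Of the 59 gene lists 31 had a count of members that moved by over 1.5 times with the block, with the 6 arrays of 24 h alone or without 1 array, leaving aside pairs of counts both under 3. The values of the lists described stand beside them in the text.

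The sign changed for 11 named genes when averaged over their probe sets: CSNK1D at -0.020, AIMP1 at 0.37, DERL2 at 0.16, PDK1 at 0.051, PARD3 at 0.17, ATP2A2 at 0.71, CAMK2D at 0.075, NR2C1 at 0.077, PXMP4 at 0.068, PSMD12 at 0.027 and FARSB at 0.38. With the brightest probe set not of the kinds _x_at or _s_at it changed for ATG7 at 0.10, AIMP1 at 0.67, APH1A at 0.11, PXMP4 at 0.38 and FARSB at 1.89. These settings read other probe sets of the gene; the cause was not tested further. CSNK1D, DERL2, KRT18, KRT19, SARS2 and FARSA were the named genes that lost their call without 1 array. Probe sets near the floor of the scale bound folds only from one side.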
